A study of Mus musculus with 9 samples.

Results

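The 35 genes described here act when a cell copies its DNA or divides. They were chosen by name as a list of DNA replication and mitosis genes, 16 for S phase and 19 for mitosis, out of 21883 protein-coding genes of the mouse RefSeq annotation. All 35 were found in it. Chromatin immunoprecipitation with sequencing (ChIP-seq) had mapped H3K27ac, the acetylated lysine of histone H3 that marks working promoters and enhancers, and SOX6, a DNA-binding factor with roles in oligodendrocyte development. The maps came from O1-positive oligodendrocytes (OL), called intermediate in the labels, and from the oligodendrocyte progenitor cells (OPC) they were compared with. Both states were derived in culture from 2 mouse epiblast stem cell lines, 129O1 from strain 129S1/SvImJ and EpiSC5 from strain 129SvEv, neither of them labelled with a genetic change.

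H3K27ac had 4 peak lists, OL and OPC of each line, each from 9 µg of antibody. SOX6 had 3, OL of EpiSC5 and OPC of both lines, each from 15 µg. OPC had been sorted on CD140a and NG2, expanded in medium with the growth factors bFGF and PDGFA and harvested on a magnetic sorter, as were the O1-positive OL. No SHH was used in either maintenance or differentiation, a step shared by both groups. Each line is 1 derivation and each list 1 library, so n = 2 lines per state for H3K27ac. For a single gene, the smallest p that an exact permutation test of 2 against 2 allows, with the pairing by line left aside, is 0.33. Where a pair of values is given for a state below, 129O1 comes before EpiSC5.

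Cells commit to replication when cyclin and kinase complexes release E2F factors from their repressors, and E2F then drives the genes for replication origins, helicase loading and nucleotide supply. Genes needed later, for the spindle and for cell cleavage, are switched on through a different promoter element, the cell cycle genes homology region (CHR), often together with CCAAT boxes. OPC divide in response to PDGFA, whereas oligodendrocytes leave the cell cycle as they mature.

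RefSeq promoters on GRCm38.p6 (mm10) were listed for 29 of the 35 members and hold 30 starts, since Mcm7 has 2. Each spans 300 bases, 250 before the listed start and 50 after it. Gins2, Aurkb, Ccna2, Ccne2, Mcm4 and Tpx2 are the other members. A listed start can lie inside the gene. The Cdc6 gene begins at base 98907709 and its listed start is base 98908151. Its whole promoter, with the E2F match in it, thus lies within the gene. The promoters at the E2f1 start and at the Mcm7 start at base 138171266 also lie wholly within their genes. The 8 promoters below are shown because the acetylation results turn on them: the start peak of Mcm6, Cdc6, Cdk1, Mki67, Plk1 and Bub1 was listed in both OPC lists and neither OL list, Mcm5 kept acetylation within 1 kb before its start and none in the 1 kb after it, and Top2a kept a peak in all 4 lists. Capitals mark matches to E2F sites (TTTCGCGC, TTTGGCGC, TTTCCCGC or TTTGGCGG) and to the CHR (TTTGAA or TTCGAA), searched on both strands. Where 2 E2F matches share bases, as in Mcm5 and Mcm6, the capitals run together. They lie at chr1:128359656-128359955, minus strand (Mcm6), chr11:98907901-98908200, plus strand (Cdc6), chr8:75109259-75109558, plus strand (Mcm5), chr10:69352863-69353162, minus strand (Cdk1), chr7:135716330-135716629, minus strand (Mki67), chr7:122159185-122159484, plus strand (Plk1), chr2:127831810-127832109, minus strand (Bub1) and chr11:99024140-99024439, minus strand (Top2a).
Mcm6: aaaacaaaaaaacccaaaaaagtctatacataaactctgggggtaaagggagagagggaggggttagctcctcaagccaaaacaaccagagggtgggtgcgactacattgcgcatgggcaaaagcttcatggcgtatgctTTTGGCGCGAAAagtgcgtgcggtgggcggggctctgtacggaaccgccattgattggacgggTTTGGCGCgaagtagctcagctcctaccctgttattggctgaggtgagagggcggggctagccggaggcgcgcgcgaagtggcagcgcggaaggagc
Cdc6: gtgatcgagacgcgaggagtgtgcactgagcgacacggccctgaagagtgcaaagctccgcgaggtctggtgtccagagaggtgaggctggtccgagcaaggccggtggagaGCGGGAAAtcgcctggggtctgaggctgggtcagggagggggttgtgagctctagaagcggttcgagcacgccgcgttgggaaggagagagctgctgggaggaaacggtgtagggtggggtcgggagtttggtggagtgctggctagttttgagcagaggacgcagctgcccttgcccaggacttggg
Mcm5: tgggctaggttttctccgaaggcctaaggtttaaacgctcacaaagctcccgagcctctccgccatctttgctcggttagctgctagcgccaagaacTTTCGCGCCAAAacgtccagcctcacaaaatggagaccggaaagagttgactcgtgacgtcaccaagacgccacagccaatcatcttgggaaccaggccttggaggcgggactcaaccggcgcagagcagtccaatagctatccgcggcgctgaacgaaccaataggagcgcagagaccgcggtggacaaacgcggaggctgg
Cdk1: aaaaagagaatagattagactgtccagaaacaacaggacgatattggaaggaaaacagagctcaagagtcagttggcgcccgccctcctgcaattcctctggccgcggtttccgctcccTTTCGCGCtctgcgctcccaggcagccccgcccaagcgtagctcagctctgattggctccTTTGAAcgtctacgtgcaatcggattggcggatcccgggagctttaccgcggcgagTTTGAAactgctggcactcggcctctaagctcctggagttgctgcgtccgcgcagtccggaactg
Mki67: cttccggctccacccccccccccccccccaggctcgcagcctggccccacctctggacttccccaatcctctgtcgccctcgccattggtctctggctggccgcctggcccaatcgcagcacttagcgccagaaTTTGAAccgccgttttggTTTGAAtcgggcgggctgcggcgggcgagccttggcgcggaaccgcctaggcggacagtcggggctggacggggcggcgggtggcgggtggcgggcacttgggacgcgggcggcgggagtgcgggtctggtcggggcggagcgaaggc
Plk1: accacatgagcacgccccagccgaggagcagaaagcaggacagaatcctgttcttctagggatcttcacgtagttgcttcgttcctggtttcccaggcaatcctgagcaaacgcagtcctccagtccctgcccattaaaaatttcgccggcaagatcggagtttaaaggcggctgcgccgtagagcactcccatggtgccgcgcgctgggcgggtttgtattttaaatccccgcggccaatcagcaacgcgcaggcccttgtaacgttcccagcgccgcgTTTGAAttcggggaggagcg
Bub1: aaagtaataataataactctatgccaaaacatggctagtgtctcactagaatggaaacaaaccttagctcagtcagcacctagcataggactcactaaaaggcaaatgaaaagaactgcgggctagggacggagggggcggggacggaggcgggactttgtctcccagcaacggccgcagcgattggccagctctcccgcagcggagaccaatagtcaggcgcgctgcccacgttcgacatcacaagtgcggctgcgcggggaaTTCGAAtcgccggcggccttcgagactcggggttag
Top2a: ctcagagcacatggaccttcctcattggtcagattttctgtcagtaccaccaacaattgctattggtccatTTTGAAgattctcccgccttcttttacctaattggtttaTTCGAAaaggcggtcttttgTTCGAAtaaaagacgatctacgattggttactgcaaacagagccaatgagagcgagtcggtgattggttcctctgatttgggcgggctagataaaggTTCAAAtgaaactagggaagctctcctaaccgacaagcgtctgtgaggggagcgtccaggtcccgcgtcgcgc

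E2F matches were mostly in S phase promoters and CHR matches mostly in mitosis promoters. An E2F match was found in 6 of 14 S phase promoters (42.9%), in 1 of 16 mitosis promoters (6.25%) and in 642 of all 21262 promoters (3.02%). A CHR match was found in 12 of 16 mitosis promoters (75.0%), in 2 of 14 S phase promoters (14.3%) and in 17.6% of all promoters. The S phase promoters with an E2F match were those of Mcm3, Mcm5, Mcm6, Mcm7, Cdc6 and Cdt1, and the mitosis promoter was that of Cdk1, which also held 2 CHR matches. Of the CHR matches, those of Mki67 began at bases -116 and -98, that of Plk1 at 31 and that of Bub1 at 15, with base 1 as the start and -1 as the base before it. In Top2a 4 CHR matches began between bases -179 and -23. Birc5, Ccnb1, Cenpe and Nusap1 were the mitosis promoters with no CHR match in this window. CCAAT was found on either strand in 22 of 30 member promoters (73.3%), against 38.2% of all. ACAAT, the core letters of SOX sites, was found in 4 of 30 (13.3%), all 4 mitosis promoters, against 27.7% of all. Restricted to the 9970 promoters with an H3K27ac start peak in both OPC lists, the shares were 5.07% for E2F, 12.5% for CHR, 38.7% for CCAAT and 18.4% for ACAAT, and the median GC content was 58.3% in members, against 62.3% in these promoters. These matches describe letters and show no binding.

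**Figure D1:**
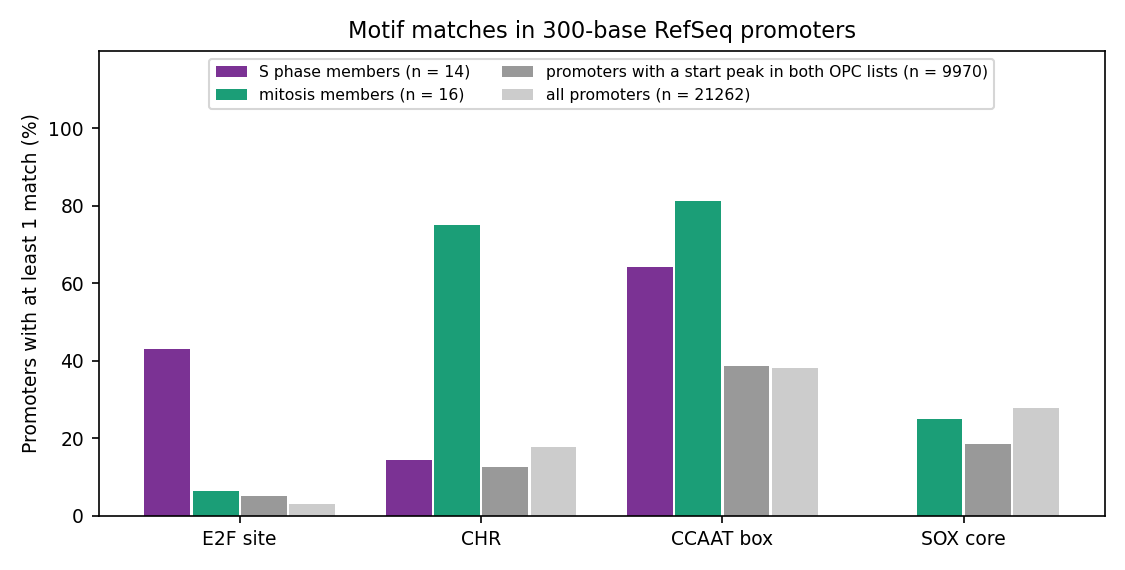
Share of 300-base RefSeq promoters with at least 1 match (y axis, %) to an E2F site, the CHR, a CCAAT box or the SOX core letters (x axis), for S phase members, mitosis members, promoters with an H3K27ac start peak in both OPC lists and all promoters. E2F matches reach 42.9% of S phase promoters and CHR matches 75.0% of mitosis promoters.

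Acetylation was measured as covered length: the bases of H3K27ac peaks within the gene body plus 10 kb on each side. Over the 21 chromosomes used, the H3K27ac lists held 33738 and 31005 peaks in OL (50.9 and 43.5 Mb), against 30829 and 27721 peaks in OPC (48.7 and 37.2 Mb). The lists hold no read counts, so depth is unknown. Median −log10 q per peak, as the authors give it, was 10.8 and 9.48 in OL, against 17.6 and 12.8 in OPC. Of 11 tested oligodendrocyte markers 10 were wider in OL and 0 narrower (limma, 0 lower at unadjusted p under 0.05), with a median change of 1.87 on the log2 scale defined below. Testing needed a mean of 1 kb over the 4 lists. Mag, Mobp (0.593 and 0 kb in OPC) and Enpp6 (0 and 0.411 kb in OPC) reached it wholly or almost wholly through OL. The direction of their change was thus set by that filter. OPC markers as a list did not set the states apart: 3 of 11 (Pdgfra, Ptprz1 and Pcdh15) were narrower and 0 wider (limma, 1 higher at unadjusted p under 0.05), their median of -0.24 equalled that of all genes, and both OL values lay below both OPC values for 4. Mag, a myelin adhesion protein, had 4.46 and 8.34 kb in OL and 0 in both OPC lists, and Pdgfra, the PDGFA receptor, had 2.55 and 1.54 kb in OL, against 15.2 and 13.1 in OPC. The summed cover of 8 astrocyte markers was 56.1 and 23.6 kb in OL, against 42.0 and 31.7 in OPC, with none of the 8 at 0 in any list and 0 called (limma, 3 at unadjusted p under 0.05). Of 6 tested neuron markers 1 was narrower and 1 wider, of 3 microglia markers 1 was wider, and of 2 pluripotency markers 0 were called (limma, 1 at unadjusted p under 0.05). The wider microglia marker, Csf1r, had 0 kb in both OPC lists and passed the filter through OL alone. The part of these markers in the results below was not tested.

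H3K27ac over the division genes was less extensive in OL than in OPC of the same line. Summed over the 35 members, covered length was 50.8 and 32.8 kb in OL, against 98.0 and 79.1 in OPC, while the total over all peaks was longer in OL in both lines. In OL, 7 members had no H3K27ac in 129O1 and 14 had none in EpiSC5, whereas in OPC every member had some in both lines. Of all 21883 genes, 7497 and 8387 had none in OL, against 7151 and 7594 in OPC. Members at 0 in OL were thus no more frequent than all genes in 129O1 and about as frequent in EpiSC5. Since no member was at 0 in OPC, the share at 0 rose further from OPC to OL for members than for all genes. Both OL values lay below both OPC values for 27 of the 35, where 36.6% of all genes with any H3K27ac did so. They lay above for E2f1, Cdc20 and Tpx2, where 23.4% of all genes did, and overlapped for Ccne1, Cdt1, Gins2, Aurka and Cenpe. A list from many cells cannot tell fewer cells with the mark from less of the mark per cell.

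**Figure D2:**
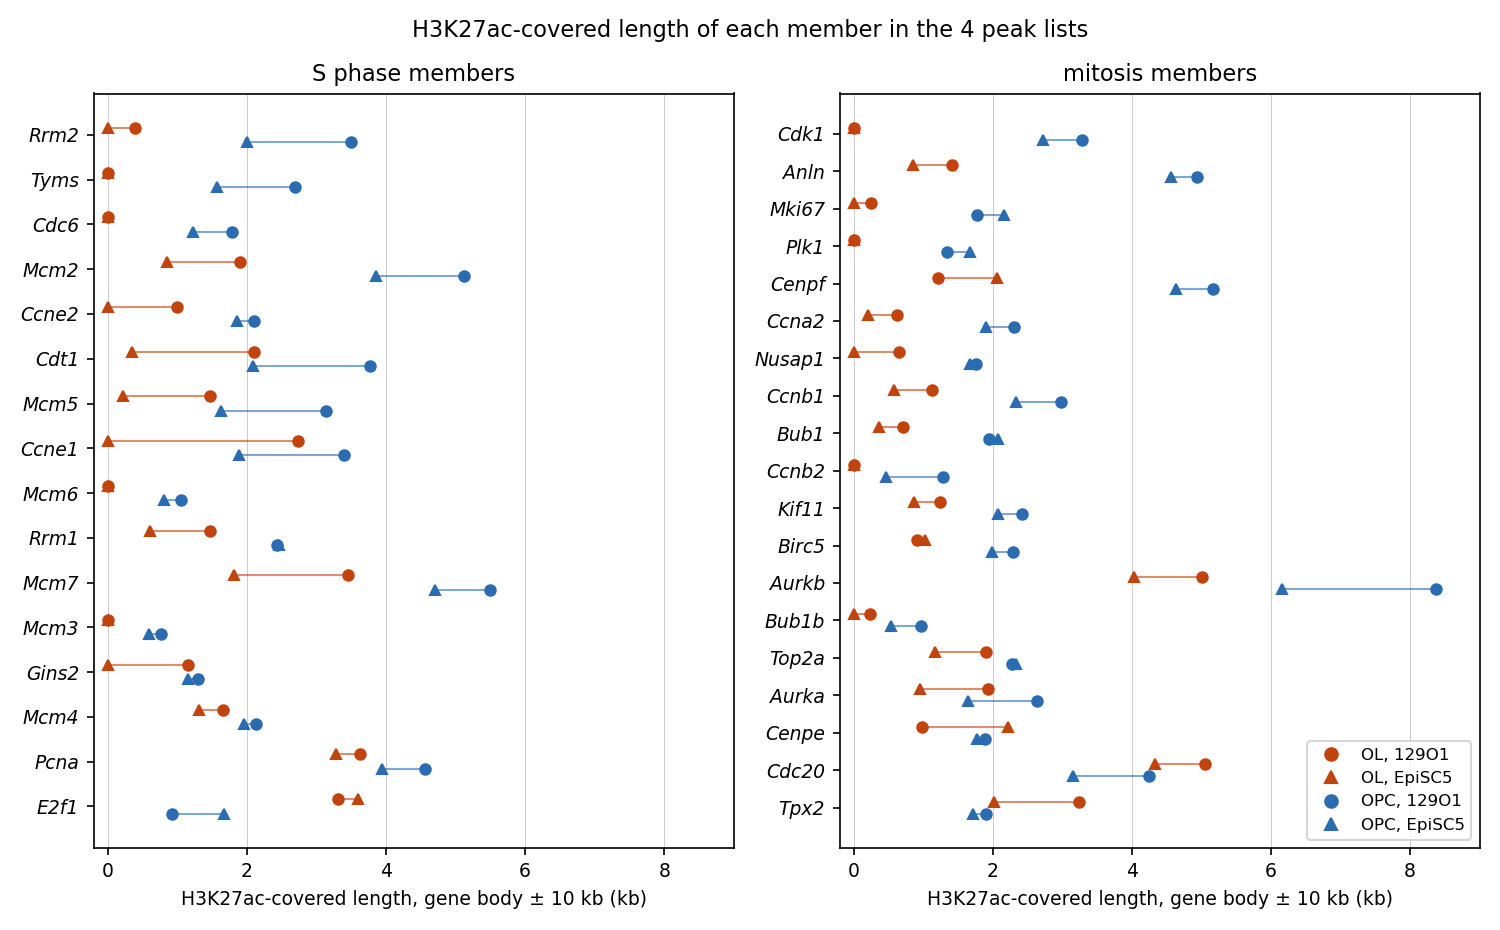
H3K27ac-covered length within the gene body plus 10 kb on each side (x axis, kb, as deposited) for each of the 16 S phase members (left) and 19 mitosis members (right), in OL and OPC of 129O1 (circles) and EpiSC5 (triangles); bars join the values of a state. OL points lie left of OPC points for most members, with E2f1, Cdc20 and Tpx2 the other way round.

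For the test, each list was scaled to the same total covered length, log2 of covered kb plus 1 was taken, and limma was fitted with terms for state and line to the 12456 genes averaging 1 kb or more, with Benjamini-Hochberg adjustment over all of them. Calls needed an adjusted p below 0.05 and a change of one sign in 129O1 and EpiSC5. Changes below are OL minus OPC on that log2 scale, and kb values are unscaled. Standard errors come from 2 lines, with each gene's spread drawn by limma towards that of the other genes tested. Of the members 28 were tested, and 19 were narrower in OL, 1 wider and 8 not called, with a median change of -1.0, whereas of all genes tested 16.4% were narrower and 12.5% wider, with a median of -0.24. S phase members gave 8 narrower and 1 wider of 12 tested, and mitosis members 11 narrower and 0 wider of 16 (limma, 0 higher at unadjusted p under 0.05). Mcm3, Mcm6, Cdc6, Gins2, Ccnb2, Bub1b and Plk1 did not reach a mean of 1 kb over the 4 lists. Cover in one state alone can reach that mean. Cdk1 and Tyms, with 0 kb in both OL lists, reached it through OPC alone, and Rrm2 and Mki67 almost wholly so. The direction of their change was thus set by the filter, as it was for Dut and Mybl2 below. Dlgap5, Kif20b, E2f2, E2f6, Rbl1, Ccnd1 and Ccnd2 below had 0 kb in OL of EpiSC5 and passed mostly through OPC. Without scaling, the median of all genes was -0.13, and 1562 genes were wider and 1143 narrower, against 1562 and 2041 with it. Both OPC lists were needed for the calls: without either one limma called 0 of all genes, and 12 members without that of 129O1 and 8 without that of EpiSC5 were lower at unadjusted p under 0.05. Without the term for line, 4 S phase members were narrower. No member was called narrower with the higher-scoring 50% of each list or with no filter, where 15 and 18 members were lower at unadjusted p under 0.05 (limma).

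**Figure D3:**
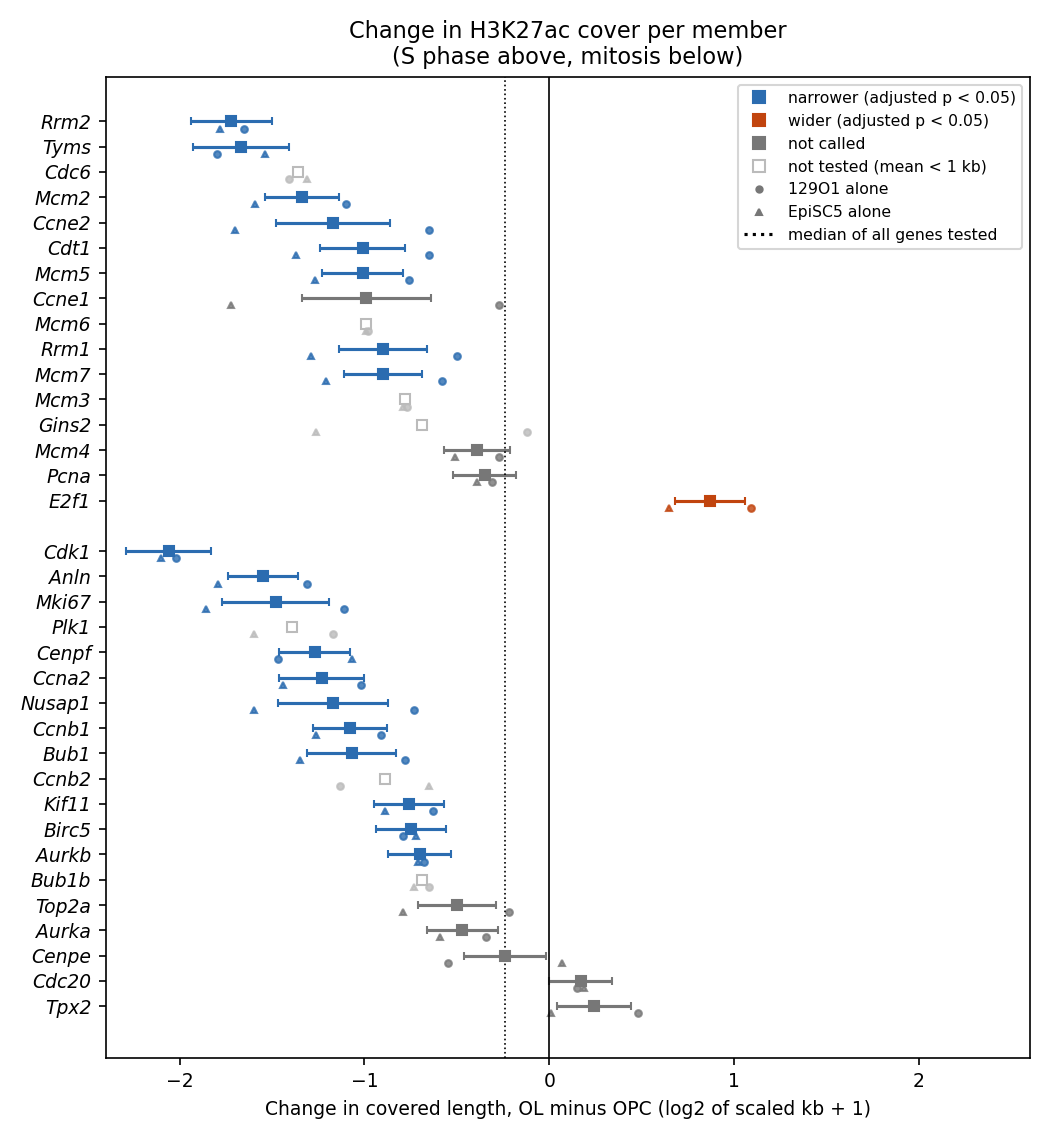
Change in H3K27ac-covered length (x axis, OL minus OPC, log2 of scaled kb plus 1) for each member, S phase above and mitosis below. Squares are limma estimates with bars of 1 SE, open squares are mean changes of members not tested, small circles and triangles are 129O1 and EpiSC5 alone, and the dotted line is the median of all genes tested, -0.24; Cdk1 lies furthest left at -2.06 and E2f1 furthest right at 0.87.

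The 3 nucleotide supply genes of the S phase group were all narrower in OL. Rrm2, the small subunit of ribonucleotide reductase, which makes deoxynucleotides, had 0.392 and 0 kb in OL, against 3.50 and 2.0 in OPC. It was narrower, with a change of -1.72 ± 0.22 (adjusted p = 0.00574, limma). Rrm1, the large subunit of the same enzyme, had 1.47 and 0.604 kb in OL, against 2.44 and 2.46 in OPC. Its change was -0.90 ± 0.24 (adjusted p = 0.0403, limma), smaller than that of its partner, and the OL lists were below both OPC lists for each of them. Tyms, thymidylate synthase, had 0 kb in both OL lists, against 2.69 and 1.57 kb in OPC, a change of -1.67 ± 0.26 (adjusted p = 0.00927, limma). Its place among the genes tested rested on OPC alone, and that of Rrm2 almost wholly on OPC. With 50 kb on each side, the change was 0.17 for Rrm1 and 0.02 for Tyms, and neither was called.

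The MCM genes encode the helicase that unwinds DNA at the fork, and all 6 of the list had less cover in both OL lists than in both OPC lists. Mcm2 had 1.90 and 0.852 kb in OL, against 5.12 and 3.86 in OPC, and was narrower, with a change of -1.34 ± 0.20 (adjusted p = 0.00787, limma). All of the OL cover in EpiSC5 lay over the neighbouring gene Tpra1. In 129O1, OL had 1180 bp over Tpra1, 388 bp over Podxl2 and 335 bp over Mcm2 itself. Mcm7 had 3.45 and 1.82 kb in OL, against 5.50 and 4.71 in OPC, and was narrower, with a change of -0.90 ± 0.21 (adjusted p = 0.0283, limma). Mcm5 had 1.47 and 0.223 kb in OL, against 3.14 and 1.63 in OPC, and was narrower too (-1.01 ± 0.22, adjusted p = 0.0231, limma). The OL values of these 3 genes were thus below their OPC values in each line, though the OL range of each was wide. Mcm4 had 1.66 and 1.32 kb in OL, against 2.13 and 1.96 in OPC, and was not called (-0.39 ± 0.18, adjusted p = 0.153, limma). Its only H3K27ac peak in each list also overlaps Prkdc. Mcm3 and Mcm6, not tested, had 0 kb in both OL lists and between 0.598 and 1.05 kb in the OPC lists.

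Of the origin and fork factors, Cdt1, which loads the helicase, had 2.10 and 0.348 kb in OL, against 3.77 and 2.09 in OPC, and was narrower (-1.01 ± 0.23, adjusted p = 0.0254, limma). The OL value of 129O1 just exceeded the OPC value of EpiSC5, so the states overlapped across lines but not within either. Cdc6, its loading partner, had 0 kb in both OL lists, against 1.79 and 1.22 kb in OPC, and Gins2, a helicase cofactor, had 1.16 and 0 kb in OL, against 1.30 and 1.16 in OPC; neither was tested. Pcna, the sliding clamp of the polymerases, had 3.63 and 3.28 kb in OL, against 4.56 and 3.95 in OPC, and was not called (-0.35 ± 0.17, adjusted p = 0.161, limma). The Pcna window thus kept most of its cover, but part of that lay over the neighbouring genes Tmem230 and Cds2. Its start peak spanned 1562 and 1558 bp in OL, against 2102 and 1888 bp in OPC, and also overlaps Cds2.

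The E cyclins open S phase. Ccne2 had 0.990 and 0 kb in OL, against 2.10 and 1.86 in OPC, and was narrower (-1.17 ± 0.31, adjusted p = 0.0372, limma), with the states apart. Ccne1 had 2.74 and 0 kb in OL, against 3.39 and 1.89 in OPC, and was not called (-0.99 ± 0.35, adjusted p = 0.0783, limma), with a change of -0.27 in 129O1 and -1.72 in EpiSC5. E2f1, the transcription factor of the S phase programme, had more: 3.31 and 3.60 kb in OL, against 0.921 and 1.67 in OPC, a change of 0.87 ± 0.19 (adjusted p = 0.0238, limma). It was not called with any 1 list left out.

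The wider cover of E2f1 did not lie at its listed start, base 154569426 of chromosome 2. That start is inside the gene, which on the minus strand begins at base 154569892. The peak over the start was shorter in OL, 497 and 413 bp, against 921 and 1673 bp in OPC, and OPC had no other peak in the window. OL had 3 more: one inside the gene 2.89 kb past the start (1336 bp in 129O1 and 1541 bp in EpiSC5), one before it, at -4.89 kb in 129O1 and -4.54 kb in EpiSC5 (685 and 1539 bp), and one reaching into the window from Necab3 and 1700003F12Rik. Within 2 kb of the start the change was -0.72 ± 0.24 (adjusted p = 0.032, limma), the opposite of that over the whole window. That narrower window was added after these values were seen.

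In the mitosis group Cdk1, the kinase that drives entry into mitosis, had the largest change of all members. It had 0 kb in both OL lists, against 3.29 and 2.72 kb in OPC, a change of -2.06 ± 0.23 (adjusted p = 0.004, limma). As given above, Cdk1 passed the filter through OPC alone. The cyclin partners of Cdk1 followed: Ccna2 had 0.623 and 0.214 kb in OL, against 2.31 and 1.91 in OPC (-1.23 ± 0.23). Ccnb1 had 1.13 and 0.579 kb in OL, against 2.98 and 2.33 in OPC (-1.08 ± 0.20), and its OL cover was a single peak per list over the neighbouring gene Cenph. Both cyclins were narrower (adjusted p = 0.0159 for Ccna2 and 0.014 for Ccnb1, limma), and their states did not overlap. Ccnb2 was not tested and had 0 kb in both OL lists, against 1.28 and 0.474 kb in OPC.

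Among the mitotic kinases and checkpoint genes, Plk1 had 0 kb in both OL lists, against 1.35 and 1.68 kb in OPC, and did not reach the mean of 1 kb. Bub1, a spindle checkpoint kinase, had 0.712 and 0.367 kb in OL, against 1.95 and 2.08 in OPC, and was narrower (-1.07 ± 0.24, adjusted p = 0.025, limma). What remained in OL lay over Mtln, about 39.5 kb from the Bub1 start. Bub1b, of the same checkpoint, was not tested, with 0.236 and 0 kb in OL, against 0.965 and 0.545 in OPC. Aurkb, the kinase of the chromosomal passenger complex, had 5.01 and 4.03 kb in OL, against 8.37 and 6.16 in OPC, and was narrower (-0.70 ± 0.17, adjusted p = 0.0319, limma). Its gene body held no peak in OL, against one of 1095 and 1118 bp in OPC, and the peaks kept in OL flank the gene. Birc5, another subunit of that complex, had 0.915 and 1.03 kb in OL, against 2.29 and 1.99 in OPC, and was narrower (-0.75 ± 0.19, adjusted p = 0.033, limma). Aurka, the spindle pole kinase, had 1.94 and 0.953 kb in OL, against 2.63 and 1.65 in OPC, and was not called (-0.47 ± 0.19, adjusted p = 0.107, limma).

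Spindle, kinetochore and cleavage genes divided into called and uncalled ones. Kif11, the motor that pushes spindle poles apart, had 1.24 and 0.868 kb in OL, against 2.42 and 2.08 in OPC (-0.76 ± 0.19, narrower). Nusap1, a microtubule binder, had 0.660 and 0 kb in OL, against 1.76 and 1.68 in OPC (-1.17 ± 0.30, narrower). Cenpf, a kinetochore protein, had 1.22 and 2.06 kb in OL, against 5.17 and 4.63 in OPC (-1.27 ± 0.19, narrower). Adjusted p was 0.0335 for Kif11, 0.0352 for Nusap1 and 0.00802 for Cenpf (limma), and none of the 3 overlapped between states. Anln, the cleavage furrow scaffold anillin, had 1.41 and 0.861 kb in OL, against 4.94 and 4.56 in OPC, a change of -1.55 ± 0.19 (adjusted p = 0.00531, limma). Cenpe, a kinetochore motor, had 0.991 and 2.22 kb in OL, against 1.89 and 1.77 in OPC, and was not called (-0.24 ± 0.22, adjusted p = 0.412, limma). Tpx2, an activator of Aurora A, had 3.24 and 2.02 kb in OL, against 1.91 and 1.72 in OPC (0.24 ± 0.20). Cdc20, which starts anaphase, had 5.05 and 4.33 kb in OL, against 4.25 and 3.15 in OPC (0.17 ± 0.17). Neither was called. The peak at one end of Tpx2 was shorter in OL, 889 and 483 bp, against 1911 and 1717 bp in OPC. The rest of its OL cover was a peak inside the gene (1374 and 1532 bp), not listed in OPC, and a flanking one of 980 bp in 129O1.

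Mki67, the gene of the proliferation antigen Ki-67, had 0.253 and 0 kb in OL, against 1.77 and 2.17 in OPC, a change of -1.48 ± 0.29 (adjusted p = 0.0173, limma). All its peaks, 1 in each list but that of OL in EpiSC5, overlap the gene itself, and the OL value was below both OPC values. Top2a, the topoisomerase that untangles sister chromatids, had 1.90 and 1.17 kb in OL, against 2.28 and 2.33 in OPC, and was not called (-0.50 ± 0.21, adjusted p = 0.118, limma).

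Both lines gave the same direction for most members, as they did for most genes tested. Over the 28 tested, 24 were below 0 in both lines. E2f1, Cdc20 and Tpx2 were above 0 in both, and Cenpe differed in sign. Of all genes tested, 84.5% had one sign in both lines. No member differed between 129O1 and EpiSC5 at adjusted p under 0.05 (limma, lowest 0.534, with 4 at unadjusted p under 0.05), against 0.0883% of all genes. The members' median change was -0.67 in 129O1 and -1.26 in EpiSC5, against -0.16 and -0.30 for all genes tested. The change was lower in EpiSC5 than in 129O1 for 23 of 28 members, E2f1 and Tpx2 with changes above 0 among them, and for 64.9% of all genes tested. With 1 list per state in a line, the difference between lines in the change was not tested.

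The cover missing in OL lay mostly in the peaks over gene starts. Over the 29 members with a listed start, peaks over the start summed to 18.8 and 10.7 kb in OL, against 55.6 and 45.2 in OPC, whereas all other peaks in their windows summed to 19.3 and 14.4 kb in OL, against 24.2 and 19.1 in OPC. A peak overlapped the 300-base promoter of 16 and 10 of 29 members in OL, against 29 and 26 in OPC. For all 17491 genes with a listed start the shares were 46.6% and 37.1% in OL, against 51.7% and 48.9% in OPC. In both OPC lists but neither OL list, a start peak was listed for 11 of 29 members, against 3.25% of all genes. Those 11 were Rrm2, Tyms, Mcm6 and Cdc6 of the S phase group and Cdk1, Mki67, Plk1, Cenpf, Ccnb1, Ccnb2 and Bub1 of the mitosis group. Counted only among genes whose start had a peak in both OPC lists, it was 11 of 26 members, against 7.88% of genes. No member had a start peak in both OL lists and neither OPC list, against 0.617% of all genes.

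**Figure D4:**
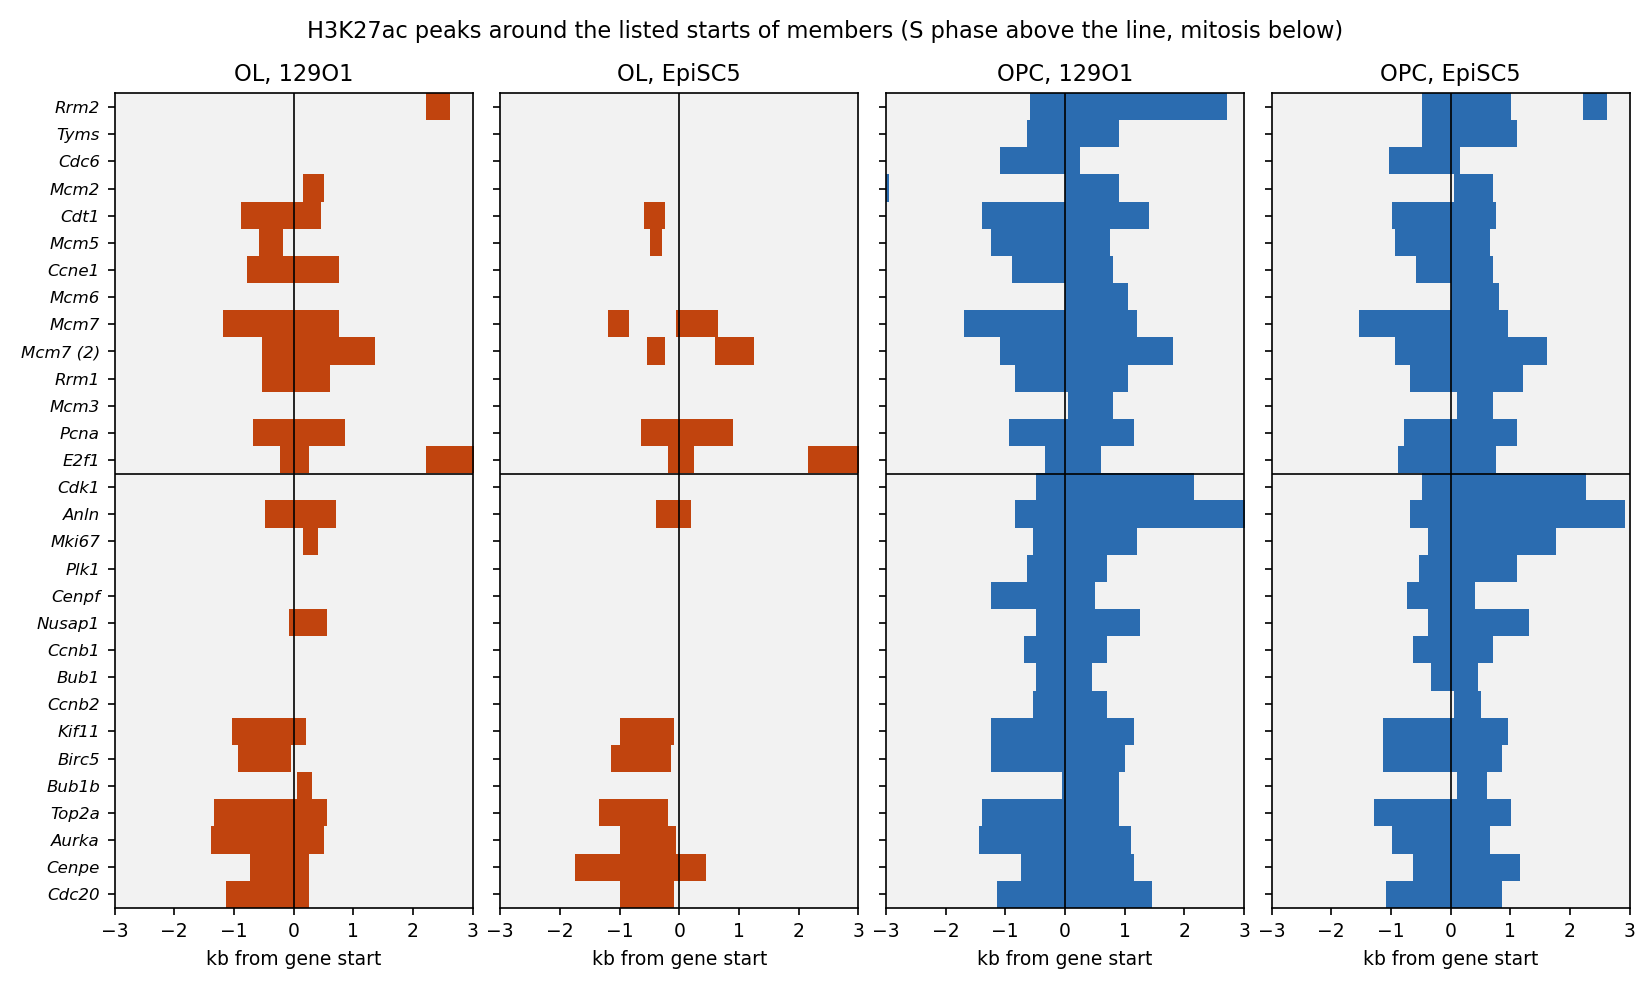
H3K27ac peaks (coloured) from 3 kb before to 3 kb after each listed start (x axis, kb, transcribed side to the right) for 30 starts of 29 members, S phase above the line and mitosis below, in the 2 OL lists and then the 2 OPC lists. Every start has a peak nearby in OPC, many have none in OL, and the OL peaks at Kif11, Birc5, Top2a, Aurka and Cdc20 reach further before the start than after it.

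Within 2 kb of the start, 23 members had enough cover to test (a mean of at least 0.5 kb, a window added after seeing the data). Of these 21 were narrower and 0 wider (limma, 0 higher at unadjusted p under 0.05), against 30.5% and 2.86% of all genes. Rrm2, Tyms, Cdc6, Cdk1, Ccnb1, Cenpf and Plk1 had no H3K27ac within 1 kb of the start in either OL list and reached that mean almost wholly through OPC, so that a narrower call was set for them by the filter. Mki67, with 253 and 0 bp within 1 kb of its start in OL, also reached the mean almost wholly through OPC. The median change was -1.09, against -0.32 for all genes, and narrower calls at starts were common in OL beyond these genes. Pcna and Cenpe were not called. Top2a (-0.50 ± 0.15), Aurka (-0.46 ± 0.14), Cdc20 (-0.70 ± 0.15) and Ccne1 (-0.74 ± 0.26), none of them called over the whole window, were narrower here, with adjusted p between 0.00286 and 0.0396 (limma). Cdc20 thus had less cover at its start in OL, 1394 and 907 bp, against 2580 and 1981 bp in OPC. Median −log10 q was lower in the OL lists, as given above, and its part in these results was not tested.

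Members had less H3K27ac in OL on both sides of the start. The first 1 kb after the start held none in either OL list for 13 of 29 members and held some in both OPC lists for all 29. Of all genes, 2.61% had it there in both OPC lists and neither OL list, or 6.01% of those with it in both OPC lists. At the 27 member starts with a peak in both OPC lists, the median covered length in the 1 kb after the start was 245 and 0 bp in OL, against 1000 and 940 bp in OPC. Over the same 27 starts, the median in the 1 kb before the start was 424 and 0 bp in OL, against 869 and 704 bp in OPC. For all 9970 such starts the median after the start was 834 and 624 bp in OL, against 1000 and 860 bp in OPC, and before it 592 and 418 bp in OL, against 786 and 648 bp in OPC. A difference between the sides was not tested.

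A start peak was present in all 4 lists for 10 members. In both OL lists the 1 kb before the start was covered further than the 1 kb after it for 6 of the 10, against 26.5% of all 6250 such genes. In OPC the sides were not compared in this way, since peaks often filled both 1 kb windows. The 6 were Top2a, Aurka, Birc5, Cdc20, Kif11 and Cenpe, all mitosis genes, and the other 4 were Anln, Mcm7, Pcna and E2f1. Kif11 had 199 and 0 bp after its start in OL, against 1000 and 940 bp in OPC, and 1000 and 868 bp before it in OL, against 1000 and 1000 bp in OPC. Birc5 had 0 bp after its start in both OL lists, against 1000 and 857 bp in OPC, and 915 and 874 bp before it in OL, against 1000 and 1000 bp in OPC. A value of 1000 bp is the whole window, so peaks that reach beyond it are not measured in full. Of the S phase group, Mcm5 had 0 bp after its start in both OL lists, against 751 and 663 bp in OPC, and 424 and 223 bp before it in OL, against 1000 and 963 bp in OPC. The OPC peak over Aurka also held the start of Cstf1, that over Mcm7 the start of Ap4m1, that over Nusap1 the start of Oip5, and that over Anln the start of 9530077C05Rik.

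**Figure D5:**
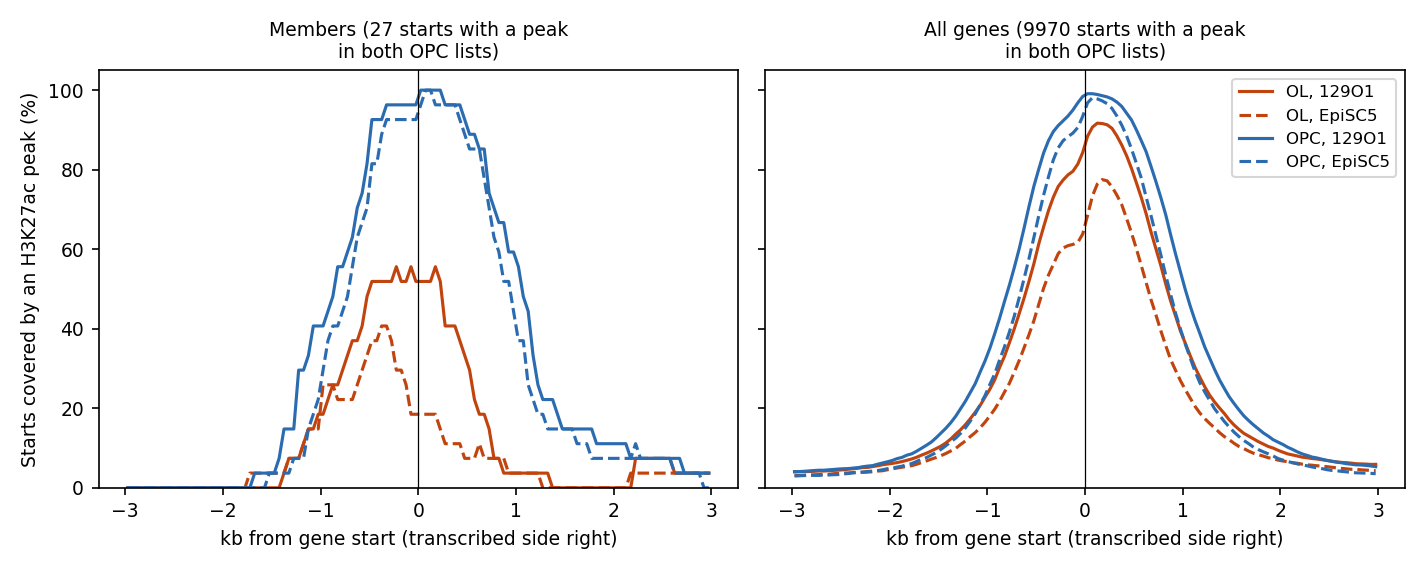
Share of starts covered by an H3K27ac peak (y axis, %) by distance from the start (x axis, kb, transcribed side to the right), for 27 member starts (left) and 9970 starts of all genes (right) with a peak in both OPC lists; solid lines are 129O1 and dashed lines EpiSC5. At the start and in the 1 kb after it, the OL curves of members lie below those of all genes, while the OPC curves of both sets are near 100% just after the start.

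SOX6 was listed at a minority of the division genes in each list. The states were not tested against each other, since OL has 1 list. In OL, the 1 list (3893 peaks) had SOX6 in the windows of Mcm4 and Aurkb alone, 2 of 35, against 16.3% of all genes. In OPC, the list of 129O1 (22876 peaks) had SOX6 in 14 of 35 windows, against 44.5% of all genes, and that of EpiSC5 (15487 peaks) in 9 of 35, against 32.6%. Both OPC lists had it at 8 members (22.9%), against 31.2% of all genes: Mcm2, Mcm4, Mcm7, E2f1, Aurka, Aurkb, Cenpf and Anln. The OL list is the shortest of the 3. Over a listed start, SOX6 was found at 0 of 29 members in OL, against 2 (Mcm7 and Cdc20) and 1 (Mcm7) in OPC. For all genes that share was 7.76% in OL, against 15.6% and 7.96% in OPC.

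The SOX6 peaks at members lay mostly away from starts, in acetylated elements or in neighbouring genes. In the Mcm2 body, 12.2 kb past the start, neither mark was listed in OL, against SOX6 peaks of 449 and 407 bp inside H3K27ac peaks of 1884 and 1391 bp in OPC. In the Cenpf body, 43.0 kb past the start, SOX6 of OPC (370 bp in 129O1, with a second peak of 236 bp beside it, and 289 bp in EpiSC5) overlapped H3K27ac peaks of 1221 and 1167 bp in OL, against 2500 and 2557 bp in OPC. That element was thus kept, though shorter, while the start peak of Cenpf was not listed in OL. In the Anln body, 20.9 kb past the start, SOX6 peaks of 397 and 338 bp in OPC partly or wholly overlapped H3K27ac peaks of 256 and 282 bp in OL, against 481 and 935 bp in OPC, and a second SOX6 site 12.9 kb past the start had no H3K27ac in any list.

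E2f1 showed the other order. At the element before its start, H3K27ac of 685 and 1539 bp was listed in OL with no SOX6 (1 list), against SOX6 peaks of 307 and 244 bp with no H3K27ac in OPC, centred at -4.98 and -4.91 kb. At Mcm7 one SOX6 site (209 to 355 bp) lay at the start and another, of 513 and 503 bp, over Zfp113. At Aurkb SOX6 was listed in OL and OPC in the flanks, covering 0.615 kb in OL, against 0.760 and 0.417 in OPC. Mcm4 had 0.168 kb in OL over Prkdc, against 0.222 and 0.231 kb at another site in OPC. Aurka had none in OL, against 0.355 and 0.283 kb over Fam210b in OPC. Listed in OPC of 1 line only were sites of 0.378 kb at Ccne1, 0.264 kb at Pcna, 0.246 kb at Cdc6, 0.275 kb at Cdk1, 0.264 kb at Cdc20 and 0.241 kb at Cenpe, all in 129O1, and of 0.241 kb at Mcm6 in EpiSC5. Of the SOX6 peaks in members' windows, 3 of 4 in OL of EpiSC5 overlapped H3K27ac of the same state and line, against 14 of 19 in OPC of 129O1 and 7 of 12 in OPC of EpiSC5. The share over all SOX6 peaks of each list is not given here, so these counts do not set the members apart. The other 20 members, Mki67 and Top2a among them, had no SOX6 peak in any list.

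Other genes of the cell cycle were taken from lists drawn up by function, and 16.4% narrower, 12.5% wider and a median of -0.24 over all genes are the shares to set beside them. Of 36 tested genes among 45 other mitosis genes, 18 were narrower in OL and 0 wider (limma, 0 higher at unadjusted p under 0.05), with a median of -0.69. The 4 largest were Cdc25b, a phosphatase that activates Cdk1 (-2.14 ± 0.23), Dlgap5, a spindle assembly factor (-1.93 ± 0.23), Kif20b, a mitotic kinesin (-1.61 ± 0.29), and Smc4, a condensin subunit (-1.59 ± 0.17). Dlgap5, with 0.328 and 0 kb in OL, and Kif20b, with 0.754 and 0 kb, passed the filter mostly through OPC, which favoured a narrower call. Smc4 had 2.90 and 2.78 kb in OL, against 10.4 and 8.93 in OPC. Of 33 tested genes among 40 other replication genes, 7 were narrower and 1 wider, with a median of -0.36, a share of narrower calls near the 16.4% of all genes. Among these Dut, which clears dUTP, had 0 kb in both OL lists, against 2.93 and 2.72 kb in OPC (-2.00 ± 0.23), whereas Gins4, a subunit of the same complex as Gins2, had 3.33 and 3.36 kb in OL, against 0.987 and 0.817 in OPC (1.11 ± 0.18). Pola1, a polymerase subunit (-1.44 ± 0.35), and Tk1, thymidine kinase (-0.97 ± 0.18), were the other largest calls.

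Of 19 tested genes among 20 regulators of cell cycle genes, 5 were narrower and 0 wider (limma, 2 higher at unadjusted p under 0.05), with a median of -0.39. The largest were E2f6, a repressor E2F (-1.74 ± 0.39), Rbl1, a pocket protein (-1.62 ± 0.24), Mybl2, an activator of mitosis genes (-1.58 ± 0.28), and E2f2, an activator E2F (-1.54 ± 0.21). Of 11 tested genes among 13 G1 cyclins, their kinases and inhibitors, 7 were narrower and 0 wider (limma, 0 higher at unadjusted p under 0.05), with a median of -1.08. Ccnd1, cyclin D1, had 0.412 and 0 kb in OL, against 8.37 and 6.17 in OPC (-2.88 ± 0.19, adjusted p = 0.0021, limma), a larger change than that of any S phase or mitosis member. Ccnd2 (-2.33 ± 0.21), Cdk6 (-2.28 ± 0.20) and the inhibitor Cdkn1a (-1.28 ± 0.26) followed. Ccnd1 and Ccnd2 (0.346 and 0 kb in OL) passed the filter almost wholly through OPC, so the direction of their change was set by it. Of 12 tested housekeeping genes, 2 were narrower and 0 wider (limma, 0 higher at unadjusted p under 0.05), with a median of -0.34, again near the share of all genes.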

How the data were processed

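The labels describe 9 samples, and 7 have the deposited peak lists used here; both inputs, whose titles and other labels name different cells, were not analysed here. The submitters' processing notes name build mm10 and, as tools, bedtools, deepTools, Picard, Bowtie2 2.3.2 and Trim Galore 0.3.1; the peak caller is not given in the sources used here. The deposited score of each peak is 10 times its −log10 q, rounded down. The authors' fold, a ratio over background, and their −log10 p and −log10 q served only to describe or filter peaks within a list. More than 1 sequencer is named per the labels without tying a library to either, and a sequencer effect was not tested.

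Only peaks on the 19 autosomes, X and Y entered. Covered length was taken over the RefSeq gene body plus 10 kb each side. The test was limma 3.58.1 (R 4.3.3, trend, 1 residual degree of freedom, prior 5.03) on log2 of scaled kb plus 1, checked on simulated data. That scale understates changes of genes with little cover. Line is a term because OL and OPC numbers follow the cell line. Coordinates are 1-based; overlap means at least 1 bp. A p-value rests on how far a gene's change differed between the 2 lines, pooled by limma with the spread of the other genes tested. As the replicates are 2 lines, it does not measure the spread over further derivations.

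The members, the gene and marker lists, the motifs and the tests were chosen with earlier results of these data known. All members are named; values are given for those called, for 12 always given and for those with SOX6; of other cell cycle lists, the 4 largest calls. Alternatives were another pseudocount, filter, scaling and window, shorter lists, no line term, each list left out, and windows at the start, the last added after seeing the data. No chance or set test was run.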

Additional observations from a re-analysis of the deposited data

Results flagged for a closer look

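Cenpe moved in opposite directions in the lines: its change was -0.55 in 129O1 and 0.07 in EpiSC5, a difference of -0.62 (log2). Its peak over the start spanned 991 and 2221 bp in OL, against 1892 and 1767 bp in OPC, so that OL of EpiSC5 held the longest of the 4. The difference was not tested, since each state has 1 list per line.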

How the results depend on the processing

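Limits: peak lists give presence and length, not signal height, depth is unknown, and 2 lines leave 1 residual degree of freedom. Windows of 26 of 35 members overlap another protein-coding gene. S phase members narrower in OL numbered 8, and 5 with a pseudocount of 0.25 kb, 5 with no scaling, 4 with no replicate block (no term for line), 3 over the gene body alone, 1 with a mean of at least 3 kb, and 0 with no filter or with the higher-scoring 50% of each list. Mitosis members narrower numbered 11, and 7 with equal numbers of peaks, 4 over the gene body alone, 3 with a mean of at least 3 kb, and 0 with no filter or the higher-scoring 50%. With no filter 18 members were still lower at unadjusted p under 0.05, and with the higher-scoring 50% 15 of 24 (limma). E2f1, the 1 wider S phase member, was called under no other setting than the pseudocount and no scaling; the count was 0 with no filter, a mean of at least 3 kb, the gene body, 50 kb, the higher-scoring 50%, equal peaks, no replicate block and the start window. Leaving out each list in turn gave 0 to 10 narrower S phase members, 0 to 13 narrower mitosis members and 0 wider S phase members; where an arm keeps 1 list, that list is assumed to vary like the others. Over all genes, narrower calls ran from 0 to 2896 and wider calls from 0 to 1384 with a list left out, with 2857 and 2517 genes at unadjusted p under 0.05 without the OPC list of 129O1 and of EpiSC5. Other settings gave, of all genes, 0 narrower and 0 wider with no filter (4815 at unadjusted p under 0.05), 43 and 129 with the higher-scoring 50%, 1143 narrower with no scaling, 1015 over the gene body, 1205 with a mean of at least 3 kb, 1228 with equal peaks, 3662 and 2382 with 50 kb, and 247 wider near starts. Without scaling the median of all genes was -0.13, against -0.24, and 57.7% of calls were wider, against 43.4%; the members' median was -0.89, against -1.0. Directions turned for Rrm1 (0.17), Tyms (0.02) and Cenpe (0.04) with 50 kb each side, for Cenpe without the OL list of 129O1 (range -0.65 to 0.17 with a list left out), for E2f1 (-0.72) and Cdc20 (-0.70) near the start, and for Tpx2 with the higher-scoring 50% (-0.84) and equal peaks (-0.28). Members with SOX6 in OL (2) numbered 0 over the gene body, 13 with 50 kb and 0 with the higher-scoring 50%; in OPC of 129O1 (14) 5, 29, 7 and, with equal numbers of peaks, 2; in OPC of EpiSC5 (9) 4, 21, 5 and 3. The cause of these shifts was not tested. The 11 members with a start peak in both OPC lists and neither OL list numbered 10 where at least 150 of the 300 bases had to be covered and 8 with the higher-scoring 50%.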
